A study of Mus musculus with 4 samples.

Results

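The 34 genes described here encode the general enzymes of glycolysis and the citrate cycle, together with the carriers and kinases that stand at their entrances, in cultured mouse primary myoblasts with and without Tet2. They were taken by gene symbol as 34 of the 24445 genes in the table. The rule used no expression value, but the set was drawn up with earlier results of these data known. Bulk RNA-seq was performed on 4 libraries, 2 from WT myoblasts and 2 from Tet2 KO myoblasts, all on the C57BL/6 strain. The cells came from satellite cells, the resident stem cells of muscle fibres, sorted out of hindlimb muscle as CD34- and integrin a7-positive cells lacking CD45, CD11b, CD31 and Sca1. Culture on collagen in proliferating medium for at least 3 days turned them into MyoD-positive myoblasts. The Tet2 KO animals lacked exon 3 of Tet2 in every cell, so the deletion was not restricted to muscle. Per the methods of the study, animals were adult males unless stated otherwise, and neither the age nor the number of animals behind each library was given in the labels.

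Each gene had 1 FPKM value per group, read here as pooled over its libraries (fragments counted per kilobase of transcript per 1000000 mapped), with no value per library. The methods of the study speak of comparing WT and KO samples pair by pair, and how libraries were combined is not stated. So no error stands beside any level, no difference between the groups was tested, and the depth behind a value is unknown. Differences are given as log2((Tet2 KO FPKM + 1) / (WT FPKM + 1)), named the log2 ratio, where positive values mean a higher level in Tet2 KO myoblasts. A gene was counted as higher or lower when this ratio passed 1.5-fold and its FPKM averaged over both groups was at least 1. Tet2 itself was listed at 5.79 FPKM in Tet2 KO against 6.64 FPKM in WT myoblasts. A value over the whole gene does not check for a missing exon, so the labels could not be checked with it. Myod1, the factor that defines myoblasts, stood at 313 and 336 FPKM, and the satellite cell factor Pax7 at 10.98 and 11.1 FPKM. All 7 myoblast markers listed lay below 0, with a median log2 ratio of -0.10, from Pax7 (-0.02) to Myog (-1.04).

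Glycolysis splits glucose into pyruvate and yields ATP and building blocks without oxygen. Proliferating cells run it at a high rate and export much of the pyruvate as lactate, while the citrate cycle in mitochondria oxidises the rest. When myoblasts differentiate, several steps gain a muscle-specific isozyme encoded by another gene, which the 34 general genes leave out. The Tet enzymes themselves use a citrate cycle intermediate, 2-oxoglutarate, as a substrate.

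Across the 34 genes, mRNA levels in Tet2 KO myoblasts lay close to those in WT myoblasts. Of the 32 members that averaged at least 1 FPKM, 0 were higher and 0 were lower by 1.5-fold, in a table where 3.72% of the 11692 genes at this level were higher and 2.89% were lower. The median log2 ratio of these 32 members was 0.01, against -0.00 over all 11692 genes, with 19 members above 0 and 13 below. At a smaller threshold of 0.32 on the log2 scale, the lactate exporter Slc16a3 and the regulatory enzyme Pfkfb3 were higher, the kinase Pdk2 was lower, and 29 members lay within, where 7.04% of all genes were higher and 7.03% were lower. The summed FPKM of all 34 members was 7639 in Tet2 KO and 7448 in WT myoblasts, or 1.35% and 1.31% of the FPKM of the whole table. The 2 members under a mean FPKM of 1 were the brain-type isozymes Aldoc (0.494 and 0.407 FPKM in Tet2 KO and WT) and Eno2 (0.863 and 1.014 FPKM).

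**Figure D1:**
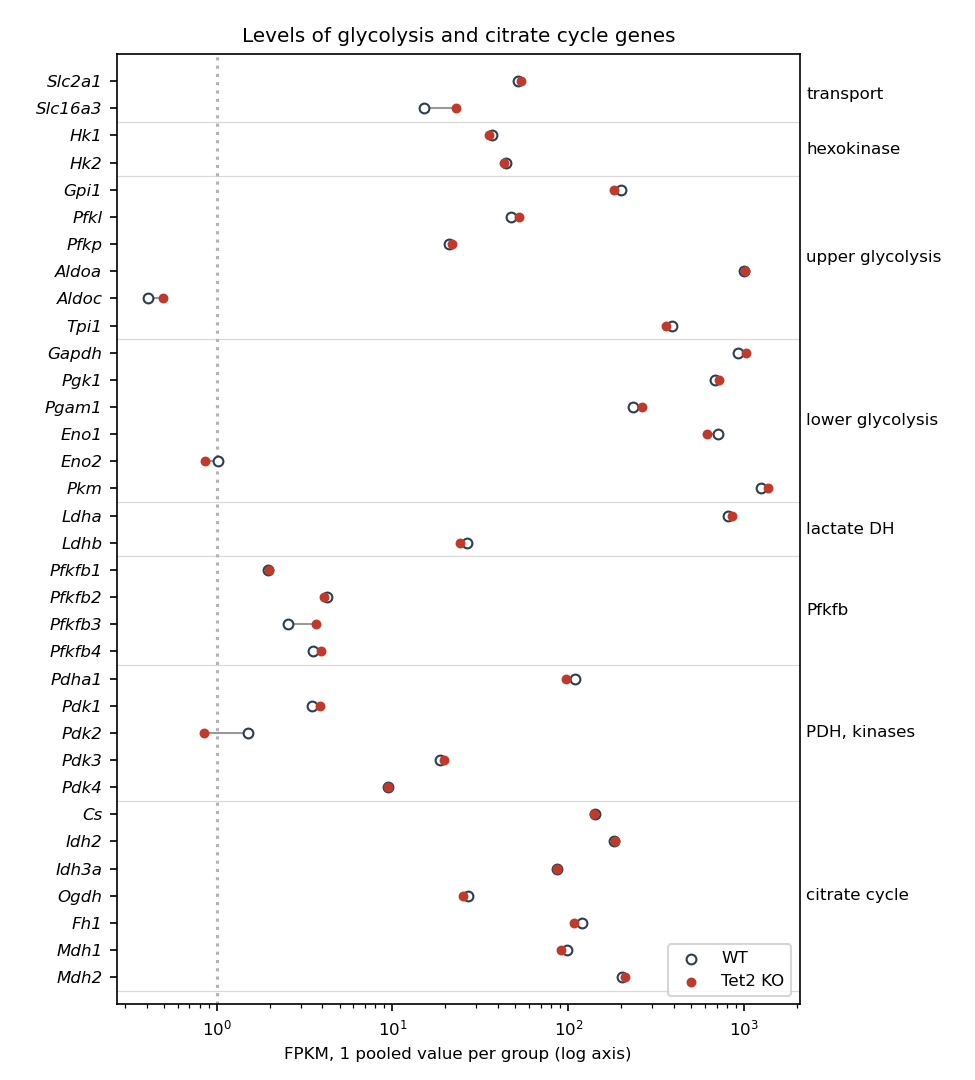
FPKM of the 34 members on a log axis, with the pooled value of WT as open circles and of Tet2 KO as red points, grouped by role. Most pairs of points lie on each other, from Pkm above 1000 FPKM to Aldoc under 1, while Slc16a3, Pfkfb3 and Pdk2 are the visibly separated pairs above the dotted line at 1 FPKM in at least 1 group.

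The levels spanned more than 3 orders of magnitude. Pkm, which encodes pyruvate kinase, was the most abundant member and ranked 50 among all genes by mean FPKM. Aldoa, Gapdh, Ldha, Pgk1 and Eno1 followed, with ranks between 79 and 131. The order of the members was the same in both groups apart from exchanges of near neighbours. Gapdh stood above Aldoa in Tet2 KO and below it in WT myoblasts, Pgk1 and Eno1 exchanged places, as did Idh2 and Gpi1 and the scarce Eno2 and Pdk2, and Slc16a3 moved from place 25 in WT to place 23 in Tet2 KO myoblasts. Such exchanges cannot be set against a spread, since no value per library was used. The 14 members that averaged at least 100 FPKM had log2 ratios between -0.20 and 0.17, and 0 of them passed 0.32 in either direction. Among all 935 genes at that level, 4.17% were higher and 4.06% were lower by the same measure.

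Glucose enters and lactate leaves the cell through membrane carriers. Slc2a1 (chr4:118781350-118809934, build mm9), the basal glucose transporter GLUT1, was listed at 53.5 FPKM in Tet2 KO against 51.6 FPKM in WT myoblasts, a log2 ratio of 0.05. Slc16a3 (chr11:120809798-120820314) encodes MCT4, the lactate exporter of cells with strong glycolysis. It was listed at 22.9 FPKM in Tet2 KO against 15.2 FPKM in WT myoblasts. Its log2 ratio of 0.57, the highest of the members, fell just short of the 1.5-fold rule (0.58 on this scale), while the plain quotient of the FPKM values was 1.51. Without the pseudocount, 4.97% of the 11692 genes were higher and 4.02% were lower by 1.5-fold. Exons of Slc16a3 overlap an exon of Csnk1d on the opposite strand, and the library kit does not mark strand, so reads there cannot be assigned to one gene. Csnk1d stood at 43.8 and 42.6 FPKM.

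The 250 bases before the start of Slc16a3 are shown because this member had the highest ratio. They were taken from RefSeq on build GRCm38.p6, at chr11:120948817-120949066 on the plus strand, another build than that of the table, and capitals mark ACGTG, the core letters bound by hypoxia-inducible factors, with its first letter 27 and 14 bases before the start.
Slc16a3: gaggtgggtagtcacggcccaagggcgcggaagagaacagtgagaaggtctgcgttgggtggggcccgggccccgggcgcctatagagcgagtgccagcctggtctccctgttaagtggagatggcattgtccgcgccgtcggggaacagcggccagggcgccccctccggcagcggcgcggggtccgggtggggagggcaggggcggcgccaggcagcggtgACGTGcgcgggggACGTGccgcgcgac

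Hexokinases trap glucose in the cell by phosphorylating it. Hk2 (chr6:82675021-82724448), the inducible form, stood at 42.8 FPKM in Tet2 KO against 44.3 FPKM in WT myoblasts. Hk1 (chr10:61731603-61842656), the housekeeping form, stood at 35.2 and 36.6 FPKM. Both log2 ratios, -0.05 for Hk2 and -0.06 for Hk1, lay slightly below 0.

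The upper steps turn glucose 6-phosphate into triose phosphates. Aldoa (chr7:133938748-133943961), the aldolase that splits fructose 1,6-bisphosphate, was listed at 1009 FPKM in Tet2 KO against 998 FPKM in WT myoblasts. Tpi1 (chr6:124758679-124764314), which interconverts the triose phosphates, was listed at 360 and 387 FPKM, a log2 ratio of -0.10. These 2 most abundant upper enzymes thus differed little, in opposite directions. Gpi1, the isomerase after hexokinase, was at 182.0 and 198.5 FPKM, with a log2 ratio of -0.12. Of the phosphofructokinases, which catalyse the committed step, the liver-type Pfkl was at 52.4 and 46.9 FPKM with a log2 ratio of 0.16, and the platelet-type Pfkp was at 21.8 and 21.0 FPKM with a log2 ratio of 0.05. The median over the 5 upper members that passed the filter was 0.02.

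The lower steps harvest ATP and NADH, and 4 of the 5 lower members that passed the filter lay above 0, with a median log2 ratio of 0.13. Pkm (chr9:59504175-59527182), which encodes the pyruvate kinase of muscle and proliferating cells by alternative splicing, stood at 1373 FPKM in Tet2 KO against 1252 FPKM in WT myoblasts, a log2 ratio of 0.13. Its isoforms were not separated in these values. Gapdh (chr6:125111870-125116485), the glyceraldehyde 3-phosphate dehydrogenase often used as a reference gene, stood at 1018 and 920.3 FPKM, a log2 ratio of 0.15. Expressed relative to Gapdh, every log2 ratio fell by 0.15, which took the median of this group and that of all members below 0. Pgk1, the first ATP-forming enzyme, stood at 721 and 685 FPKM. Pgam1, the general phosphoglycerate mutase, stood at 262 and 233.5 FPKM with a log2 ratio of 0.17. Eno1 (chr4:149611306-149622982), the ubiquitous enolase, was the exception in this group, at 618 FPKM in Tet2 KO against 711 FPKM in WT myoblasts. Its log2 ratio of -0.20 was the lowest among the 14 abundant members.

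Lactate dehydrogenase regenerates NAD from pyruvate. Ldha (chr7:54101174-54110997) was at 852 FPKM in Tet2 KO against 808 FPKM in WT myoblasts, and Ldhb (chr6:142438769-142456477), whose subunit favours the reverse reaction, was at 24.4 and 26.6 FPKM. Ldha thus held 97.2% and 96.8% of the summed lactate dehydrogenase FPKM.

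The Pfkfb enzymes make and remove fructose 2,6-bisphosphate, the activator of phosphofructokinase, and all 4 were low. Pfkfb2 was listed at 4.08 FPKM in Tet2 KO against 4.24 FPKM in WT myoblasts, Pfkfb4 at 3.93 and 3.53 FPKM, and Pfkfb1 at 1.99 and 1.95 FPKM. Pfkfb3 (chr2:11393058-11475556), the form with the strongest bias towards synthesis, was listed at 3.66 and 2.53 FPKM. Its log2 ratio of 0.40 was the second highest of the members, and it held 20.7% of the family FPKM in WT and 26.8% in Tet2 KO myoblasts.

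Pyruvate dehydrogenase commits pyruvate to the mitochondria, and its kinases switch it off. Pdha1 (chrX:156426365-156576362), its catalytic subunit, was at 97.5 FPKM in Tet2 KO against 109.5 FPKM in WT myoblasts, a log2 ratio of -0.17. Pdk3 (chrX:91009955-91077434) was the most abundant kinase at 19.6 and 18.7 FPKM, and Pdk4, the starvation-induced form, was at 9.49 and 9.46 FPKM. Pdk1, a target of hypoxia-inducible factors, was at 3.86 and 3.49 FPKM. Pdk2 (chr11:94887572-94902685) was at 0.848 FPKM in Tet2 KO against 1.51 FPKM in WT myoblasts. Its log2 ratio of -0.44 was the lowest of the members at one of their lowest levels, so that the pseudocount weighed on it: without one it was -0.83, past 1.5-fold. The summed level of the 4 kinases was 33.8 and 33.2 FPKM.

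The 7 citrate cycle members lay within a narrow band, with log2 ratios between -0.15 (Fh1) and 0.06 (Mdh2) and a median of -0.02. Mdh2 (chr5:136254519-136266256), the mitochondrial malate dehydrogenase, was at 211 FPKM in Tet2 KO against 202 FPKM in WT myoblasts. Idh2 (chr7:87239734-87260236), the NADP-dependent isocitrate dehydrogenase of mitochondria, which makes 2-oxoglutarate, was at 183.1 and 182.5 FPKM. Cs, citrate synthase, was at 140.2 and 142.5 FPKM, and Fh1, fumarase, at 107.0 and 119 FPKM. Idh3a, a subunit of the NAD-dependent isocitrate dehydrogenase, was at 86.0 and 85.9 FPKM. Ogdh, a subunit of the enzyme that consumes 2-oxoglutarate, was at 25.2 and 26.9 FPKM. Mdh1, the cytosolic malate dehydrogenase, was at 91.2 and 97.8 FPKM. The members that make or use 2-oxoglutarate, Idh2, Idh3a and Ogdh, were therefore listed at nearly equal levels in both groups. Idh1, a cytosolic enzyme that also makes it and is not a member, was at 33.6 FPKM in Tet2 KO against 47.1 FPKM in WT myoblasts.

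**Figure D2:**
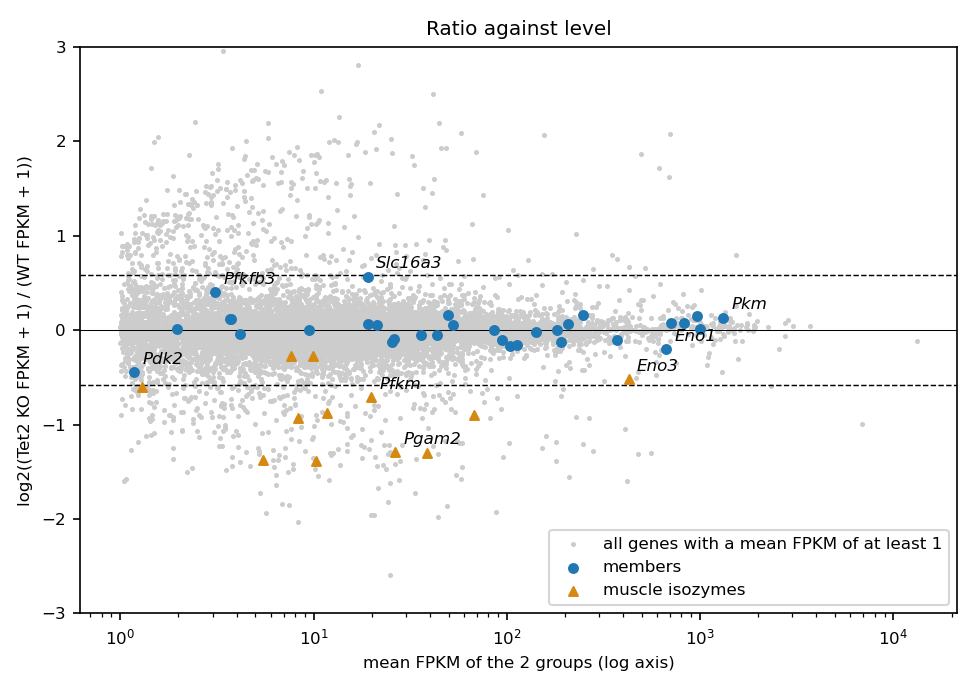
Log2 ratio of Tet2 KO to WT against mean FPKM (log axis) for all genes averaging at least 1 FPKM (grey), the members (blue circles) and the muscle isozymes (orange triangles), where dashed lines mark 1.5-fold and 11 genes lie beyond the plotted range of 3. All members lie between the dashed lines, with Slc16a3 at 0.57 just under the upper one, and the triangles all lie below 0.

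Muscle forms of energy metabolism genes were mostly lower in Tet2 KO myoblasts. The list held 16 genes, of glycolysis and glucose uptake but also of glycogen breakdown, phosphate transfer, respiration and oxygen storage. It had 12 genes above the filter, with a median log2 ratio of -0.89, and 9 of them were lower by 1.5-fold, 0 higher, beside 2.89% lower among all genes. Pgam2 (chr11:5701640-5703799), the muscle phosphoglycerate mutase, was at 14.9 FPKM in Tet2 KO against 37.9 FPKM in WT myoblasts, a log2 ratio of -1.29. Cox8b, a muscle form of a cytochrome oxidase subunit, was at 5.23 and 15.3 FPKM with the lowest log2 ratio of the list, -1.39. Cox6a2, another such subunit, was at 2.60 and 8.32 FPKM, with a log2 ratio of -1.37. Myoglobin (Mb) was at 21.8 and 55.2 FPKM, a log2 ratio of -1.30. Of the glycolytic genes in the list, Pgam2 and Pfkm were lower by 1.5-fold and Eno3, with a log2 ratio of -0.52, was not. The creatine kinase Ckm was at 5.40 and 11.2 FPKM and the adenylate kinase Ak1 at 46.6 and 87.9 FPKM. The highest ratio of the list was -0.27, for Cox7a1. Differentiated muscle markers were lower as well: 12 of 12 passed the rule of 1.5-fold, their summed level was 936 FPKM in Tet2 KO against 2562 FPKM in WT myoblasts, and none was at 0. Ckm stands in both lists. Their part in the isozyme ratios was not tested, and in bulk samples fewer cells of a type and less RNA per cell cannot be told apart. The differentiation factor Myog was at 268 and 554 FPKM.

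The isozyme makeup of single steps differed between the groups. The general forms lay within 1.5-fold, as did the muscle form Eno3 and 10919 of all 11692 genes above the filter. FPKM is per length, so levels of isozymes can be compared, with a limit where a gene has copies. Near-identical stretches elsewhere in the genome covered 94.7% of Pgam1 and 85.6% of Eno1, but none of Pgam2, Eno3, Pfkl or Pfkm. Shares of phosphoglycerate mutase and enolase are uncertain to the degree that reads were split among copies. Pgam2 held 14% of the summed phosphoglycerate mutase FPKM in WT and 5.37% in Tet2 KO myoblasts, and the family total was 271 and 277 FPKM. Pfkm, the muscle phosphofructokinase at 14.8 FPKM in Tet2 KO against 24.9 FPKM in WT myoblasts, held 26.8% of its family in WT and 16.7% in Tet2 KO myoblasts, and the share of Pfkl was 50.6% and 58.8%. The family total was 92.8 and 89.1 FPKM. Most of each total came from the general forms, which lay within 1.5-fold. The totals of these families were thus bound to differ less than the muscle forms, and they add nothing further. Eno3, the muscle enolase, was already abundant, at 351 FPKM in Tet2 KO against 503 FPKM in WT myoblasts, and held 36.2% and 41.4% of the enolase FPKM. Here both Eno1 and Eno3 were lower, and the enolase total of 970 FPKM in Tet2 KO against 1215 FPKM in WT myoblasts had a log2 ratio of -0.33. The coding sequences of Eno1 and Eno3 matched at 76.7% of aligned bases, those of Pgam1 and Pgam2 at 74.8%, and those of Pfkl and Pfkm at 69.6%.

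**Figure D3:**
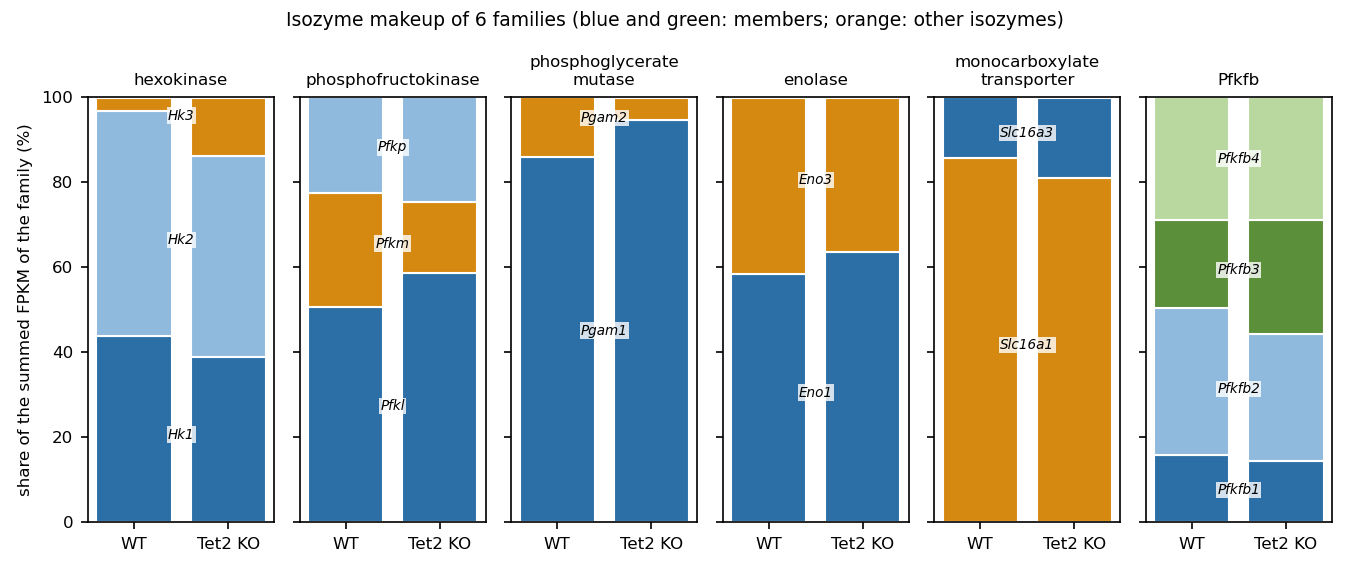
Share of the summed FPKM of each isozyme family, in percent, held by each isozyme in WT (left bar) and Tet2 KO (right bar), where isozymes under 1% in both groups are not drawn. The orange bands of the muscle forms Pfkm, Pgam2 and Eno3 are thinner in Tet2 KO, that of Hk3 is thicker (13.6% against 3.11%), and the bands of Slc16a3 and Pfkfb3 are thicker.

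The 250 bases before the starts of Pgam1 and Pgam2 are shown because the general and the muscle form of this step had log2 ratios of 0.17 and -1.29. They are from RefSeq on build GRCm38.p6, chr19:41911621-41911870 on the plus strand for Pgam1 and chr11:5803797-5804046 on the minus strand for Pgam2, each written 5′ to 3′. Capitals mark ACGTG in Pgam1, with its first letter 114 bases before the start, and in Pgam2 CAGCTG, an E-box of the kind bound by myogenic factors, 125 bases before it. The Pgam1 stretch held 22 CpG and that of Pgam2 held 1. Other pairs differed from this one in windows from 250 bases before to 50 after a start. Windows of Pfkm held ACGTG and no CAGCTG, and that of Pfkl held neither. No Eno1 window held ACGTG, while the Eno3 window held CAGCTG. The members Aldoa, Gpi1, Pdk1, Pfkfb1, Pfkfb2 and Pkm also had a window with CAGCTG.
Pgam1: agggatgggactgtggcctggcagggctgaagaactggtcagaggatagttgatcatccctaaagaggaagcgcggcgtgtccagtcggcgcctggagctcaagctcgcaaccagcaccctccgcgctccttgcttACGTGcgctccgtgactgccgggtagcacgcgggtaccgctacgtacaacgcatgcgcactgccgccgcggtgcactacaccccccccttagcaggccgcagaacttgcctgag
Pgam2: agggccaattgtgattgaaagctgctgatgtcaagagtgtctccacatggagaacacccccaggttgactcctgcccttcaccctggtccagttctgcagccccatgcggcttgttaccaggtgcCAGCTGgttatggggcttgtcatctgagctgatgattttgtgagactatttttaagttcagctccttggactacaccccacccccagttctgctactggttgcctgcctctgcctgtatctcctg

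RefSeq promoter windows, 250 bases before to 50 after a start, were found for 33 of the 34 members, in 54 windows, some of which overlap. On either strand, ACGTG was in 46.3% of member windows and in 19.6% of all 32851 windows. CACGTG, which contains ACGTG and is bound by Myc, was in 13% and 7.15%, and CAGCTG in 11.1% and 16.3%. The 25 member windows with ACGTG came from 17 of the 33 members, and the 7 with CACGTG from 5 members. For both motifs several windows were from Ogdh alone, some starting a few bases apart, so windows are not separate genes. Member windows were rich in CpG, with a median of 20 against 7 over all windows, and ACGTG itself contains a CpG. Among windows with at least 10 CpG, ACGTG was in 52.3% of 44 member windows, those of Ogdh included, and in 28.0% of all 14281. CACGTG was in 15.9% and 10.9% of these, and CAGCTG in 11.4% and 14.6%. A match of letters is not a binding site, and these windows were not set against any measured binding or methylation.

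A list of 69 other genes held 53 of glycolysis and the citrate cycle and 16 of glycogen and pentose phosphate metabolism. It included 55 genes above the filter, with a median log2 ratio of -0.03. Of these, 3 were higher and 4 lower by 1.5-fold, beside 3.72% higher and 2.89% lower among all genes. Of the 53 glycolysis and citrate cycle genes alone, 39 passed the filter, with a median of -0.05, 2 higher and 3 lower. The highest was Hk3 (chr13:55050772-55122746), a hexokinase found mainly in leukocytes, at 12.3 FPKM in Tet2 KO against 2.60 FPKM in WT myoblasts, a log2 ratio of 1.88. Its share of the hexokinase FPKM was 13.6% and 3.11%, while Hk1 and Hk2 kept nearly the same levels. Pygl, the glycogen phosphorylase of liver and white blood cells, was at 5.60 and 2.17 FPKM (log2 ratio 1.06), and the glucose transporter Slc2a3 at 1.65 and 0.717 FPKM (0.62). The 4 lower genes were the muscle forms Pgam2, Pfkm, Pygm, the muscle glycogen phosphorylase at 7.999 and 15.5 FPKM, and Slc2a4, the insulin-responsive glucose transporter at 0.816 and 1.76 FPKM. These 4 also stand in the list of muscle isozymes above and were counted there.

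Leukocyte markers were higher in Tet2 KO myoblasts although both sorts excluded CD45 and CD11b. All 14 of 14 were higher by 1.5-fold, beside 3.72% of all genes, with log2 ratios between 0.88 (Cd14) and 2.07 (Lyz2), and none was at 0. Their summed level was 491 FPKM in Tet2 KO against 125 FPKM in WT myoblasts, of which Lyz2 gave 253 and 59.5 FPKM. Ptprc, which encodes CD45, was at 5.67 and 1.36 FPKM. The part of these cells or transcripts in the ratios of Hk3, Pygl, Slc2a3, Slc16a3 and Pfkfb3 was not tested. Of 7 fibroblast markers, 6 passed the filter and 2 were higher (Dcn and Col1a2), with summed levels of 487 and 445 FPKM, of which Ly6a, the gene of Sca1, gave 288 and 278 FPKM. Of 6 endothelial markers, Pecam1 alone passed the filter, at 1.48 and 1.63 FPKM.

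The other genes of pyruvate oxidation and the citrate cycle lay within 1.5-fold, mostly below 0. By this rule, 3.72% of all genes above the filter were higher and 2.89% were lower. At these shares, 0 calls in sets of 10 and 16 genes do not set these genes apart. All 10 genes around pyruvate dehydrogenase lay within 1.5-fold, with log2 ratios between -0.17 (Pdpr) and 0.13 (Pdp1) a median of -0.11 and 9 of 10 below 0. Of 18 further citrate cycle genes, 16 passed the filter and 0 were higher or lower, with a median of -0.03 and 13 below 0. The lowest was Idh1, the cytosolic isocitrate dehydrogenase that also makes 2-oxoglutarate, at 33.6 FPKM in Tet2 KO against 47.1 FPKM in WT myoblasts, a log2 ratio of -0.47. Succinate dehydrogenase subunits ranged from Sdhd at 210 and 232 FPKM to Sdha at 126 and 134 FPKM.

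Hypoxia-inducible genes, 22 in all, of which Slc2a1, Pfkfb3, Pfkfb4 and Pdk1 are also members, had 20 above the filter and a median log2 ratio of 0.01. Adm, which encodes adrenomedullin, was the only one higher by 1.5-fold, at 4.26 and 2.24 FPKM, and 0 were lower. Among all genes above the filter, 3.72% were higher and 2.89% were lower. The lowest was the collagen-modifying enzyme Plod2 at 21.3 and 26.6 FPKM. Among 27 regulators of these pathways, 24 passed the filter with a median of 0.04, and 0 were higher or lower. Hif1a was at 99.8 and 98.6 FPKM. Myc was at 16.2 and 13.6 FPKM. The extremes were Txnip, an inhibitor of glucose uptake, at 25.6 and 19.3 FPKM (log2 ratio 0.39) and Foxo3 at 7.41 and 9.68 FPKM (-0.34). In 17 housekeeping genes, of which Gapdh and Pgk1 are members, the median was 0.01, and 0 were higher or lower by 1.5-fold.

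**Figure D4:**
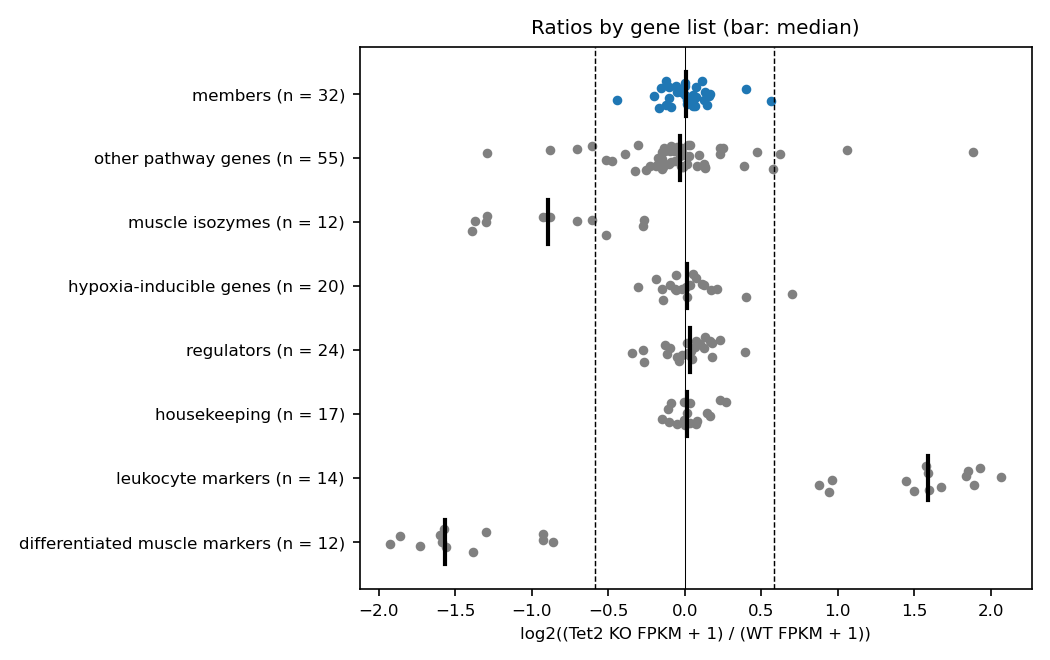
Log2 ratio of Tet2 KO to WT for each gene averaging at least 1 FPKM, by gene list, with the number of genes in brackets, a black bar at the median, dashed lines at 1.5-fold and vertical scatter for legibility. Members, hypoxia-inducible genes, regulators and housekeeping genes centre on 0, muscle isozymes (-0.89) and differentiated muscle markers (-1.57) lie to the left, and leukocyte markers (1.59) to the right.

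Many glycolytic genes have processed copies in the genome, which can share reads. A stretch of at least 100 bases with 95% identity elsewhere in the mm9 genome covered at least 50% of the transcript in 7 members. It covered 98.5% of Ldhb, 95.7% of Pgk1, 94.7% of Pgam1, 88.6% of Gapdh, 88.2% of Gpi1, 85.6% of Eno1 and 54.0% of Tpi1. Gapdh had 48 such loci, the others up to 4 each, and the values of these genes are uncertain to the degree that the counting split reads among copies. Pkm, Aldoa, Slc16a3, Pfkfb3 and Pdk2 had no such stretch. Exons of 10 members overlapped a gene on the opposite strand, Slc2a1, Slc16a3, Hk1, Gpi1, Pfkp, Tpi1, Pfkfb1, Pfkfb2, Pdha1 and Mdh1. The locus of Tpi1, Pfkfb3 and Pdha1 in the table was over 1.5 times as long as the annotated gene. Outside the members, the annotated genes of Hk3 (chr13:55107346-55122746) and Pfkm (chr15:97923020-97962878) were also shorter than their listed loci. Hk3 overlapped an exon of Unc5a on the opposite strand, which was at 0.667 FPKM in Tet2 KO against 1.09 FPKM in WT myoblasts.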

How the data were processed

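RNA-seq libraries of WT and Tet2 KO primary myoblasts (2 each) were made with the TruSeq RNA Library Preparation Kit v2. Per the methods of the study, the authors removed adapters and reads of low quality, mapped read pairs to mm9 with TopHat2 (2.0.13) and ran Cuffdiff (2.2.1), and they deposited 1 FPKM value per gene and group. The gene annotation is not given in the sources used here, and how libraries were combined is not stated (the methods speak of pairs of KO and WT samples). The table also held the authors' log2 ratios, test statistics, p-values, q-values and significance calls, which were not used.

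From the FPKM values, log2 ratios with a pseudocount of 1 were computed for genes averaging at least 1 FPKM, which understate changes of low genes. No test was possible with 1 pooled value per group. The calling rule was tested on simulated data with changes set well past it. That checks the code and not the precision of the values given here. Named genes were all members, and from other lists those past 1.5-fold (up to 6), the extremes and, for markers, the most abundant. Some others were named outside this rule, after their values were seen: Hif1a, Myc, Myod1, Myog, Pax7, Ptprc, Ly6a, Idh1, Tet2, Csnk1d, Unc5a, Sdha and Sdhd. So were the isozymes in the family shares. The members and lists were chosen with earlier results of these data known. Copies were found with BLAST (2.17.0) on NCBIM37 with GENCODE annotation, and promoters came from RefSeq (GRCm38.p6). Alternatives covered fold, pseudocount, filter, scaling and members left out.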

Additional observations from a re-analysis of the deposited data

How the results depend on the processing

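No paired analysis was possible because the table held 1 pooled value per group, and libraries could not be left out in turn. A change under 0.1 in a median or log2 ratio was taken as no move, in place of a spread between replicates. Single-gene ratios were recomputed for members only, and 0 of these passed 1.5-fold. Whether genes past 1.5-fold keep their direction was therefore not checked. Values near 0 changed sign. With 1 member left out, the median of the upper glycolytic members (0.02) reached -0.045. The median of pyruvate dehydrogenase and its kinases (0.00) reached -0.081, also with 1 member left out. That of the hypoxia-inducible genes (0.01) was -0.020 at a mean FPKM of at least 5. Relative to Gapdh, 15 members above 0, Slc2a1, Pkm and Ldha among them, lay below 0. Of 130 alternative values for counts, medians and shares, 117 moved less than this (counts by less than 1.5 times). The members called higher and lower, 0 and 0, became 2 and 1 at a threshold of 0.32 on the log2 scale. With a pseudocount of 0.1 they became 1 and 1 (Slc16a3 at 0.59, Pdk2 at -0.77), and with none also 1 and 1 (0.60 and -0.83). Relative to Gapdh, which lowered every ratio by 0.15, 1 was lower (Pdk2, -0.59). The median of the pair Slc2a1 and Slc16a3, 0.31, became 0.052 or 0.566 with 1 gene left out, and that of Ldha and Ldhb, -0.02, became -0.123 or 0.077. The muscle isozyme median, -0.89, was -1.003 without a pseudocount and -0.66 without the filter. At a mean FPKM of at least 5, the Pfkfb genes gave no value. Of 170 alternative ratios of single members, 42 moved, 34 of them under the scaling to Gapdh. The depth behind the FPKM values is unknown, so small differences at low levels, such as Pdk2 and Pfkfb3, have no stated precision.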

Other observations

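The pentose phosphate pathway branches from glycolysis at glucose 6-phosphate and yields NADPH and ribose, and its genes were not members. Pgd, the second NADPH-forming enzyme, was listed at 72.3 FPKM in Tet2 KO against 48.1 FPKM in WT myoblasts, a log2 ratio of 0.58 that fell just short of 1.5-fold on this scale. Tkt, the transketolase, was at 41.0 and 29.3 FPKM (log2 ratio 0.47), G6pdx, the entry enzyme, at 75.7 and 63.5 FPKM (0.25), and Rpia at 14.99 and 12.6 FPKM (0.23). Taldo1 at 154 and 146 FPKM, Rpe at 18.4 and 17.99 FPKM and Pgls at 107.3 and 106 FPKM were nearly level. H6pd, which works in the endoplasmic reticulum, was at 19.3 and 21.9 FPKM (-0.18). The 14 leukocyte markers, summing to 491 FPKM in Tet2 KO against 125 FPKM in WT myoblasts, were higher beside these values, and their part in the ratios of Pgd, Tkt, G6pdx and Rpia was not tested.

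Of the glycogen phosphorylases, Pygl was higher and Pygm lower by 1.5-fold, and the brain-type Pygb was at 14.03 and 17.5 FPKM (-0.30). The glycogen synthase Gys1 was at 20.4 FPKM in Tet2 KO against 25.8 FPKM in WT myoblasts (-0.32). These genes were named after their values were seen.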
